A study of Mus musculus with 2 samples.

Results

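The cells described here are neurosphere cells at one stretch of the cell cycle. It lies just after the position, around π, where the paper reports the highest total UMIs (captured RNA molecules) per cell. They were chosen by the measured cell-cycle position *θ* that the authors deposited for each cell, a polar angle in radians around an embedding of cell-cycle genes, and the arc from 3.534 to under 3.927 rad (1.125π to 1.25π) was taken. It held 916 of 12805 cells, 7.15% of all cells (exact 95% binomial interval 6.71 to 7.61%). In culture 1 these were 360 of 5748 cells (6.26%, interval 5.65 to 6.92%) and in culture 2 they were 556 of 7057 cells (7.88%, interval 7.26 to 8.53%). The arc was read against the earlier arc from 3.142 to under 3.534 rad, with 703 cells in culture 1 and 563 in culture 2, and against the later arc from 3.927 to under 4.712 rad, with 85 and 278 cells. Intervals cover counting error only.

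Neurospheres are free-floating balls of dividing neural stem and progenitor cells. Both cultures came from the dorsal telencephalon of wild-type C57BL/6 embryos at embryonic day 14.5, were grown with 10 ng/ml EGF and 10 ng/ml bFGF, and were read as 3′ single-cell RNA libraries of the Chromium system. There were 2 replicate cultures of 1 condition with no control or treated group, and the labels do not say whether they came from separate litters. Because *θ* is computed from the expression of cell-cycle genes, every gene difference between arcs is a description of how the arc was drawn, and no test was run.

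A cell enters mitosis when cyclin B and the kinase CDK1 become active together, which drives chromosome condensation, breakdown of the nuclear envelope and assembly of the spindle. The spindle checkpoint then holds the cell until every kinetochore is attached, after which CDC20 activates the anaphase-promoting complex (APC/C) and cyclin B and securin are destroyed. Many of the genes involved are transcribed from late S phase onward, and their promoters are known for 2 elements, the CCAAT box and the cell-cycle homology region with the core TTTGAA.

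The promoters of *Cenpf*, *Ube2c* and *Cdca8* are shown because these marker genes were higher in the arc than after it. These genes do not set the arc apart from the earlier arc, as given below. The other promoters are those of *Cdc20* and *Ccnb1*, both higher in the arc than before it, and *Top2a*, which fell most inside the arc. Each runs from 120 bases before the RefSeq start of transcription to 30 bases from it, in the GRCm38.p6 build, read on the strand of the gene. Capitals mark TTTGAA and CCAAT or their reverse complements TTCAAA and ATTGG.
Cenpf, chr1:189688057-189688206, minus strand: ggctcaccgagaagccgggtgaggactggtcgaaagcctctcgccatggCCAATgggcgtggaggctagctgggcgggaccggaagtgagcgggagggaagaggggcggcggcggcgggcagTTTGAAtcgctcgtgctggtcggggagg
Ube2c, chr2:164769809-164769958, plus strand: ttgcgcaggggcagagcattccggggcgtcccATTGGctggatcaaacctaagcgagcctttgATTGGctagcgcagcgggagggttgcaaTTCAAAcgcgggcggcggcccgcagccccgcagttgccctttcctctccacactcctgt
Cdca8, chr4:124936888-124937037, minus strand: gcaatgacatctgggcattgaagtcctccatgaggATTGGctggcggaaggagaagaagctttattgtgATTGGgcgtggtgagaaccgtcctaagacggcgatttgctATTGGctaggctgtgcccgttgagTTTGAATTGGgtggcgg
Cdc20, chr4:118437314-118437463, minus strand: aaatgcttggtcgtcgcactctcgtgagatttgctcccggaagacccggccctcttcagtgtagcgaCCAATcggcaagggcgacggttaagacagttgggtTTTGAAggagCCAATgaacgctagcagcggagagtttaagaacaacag
Ccnb1, chr13:100786457-100786606, minus strand: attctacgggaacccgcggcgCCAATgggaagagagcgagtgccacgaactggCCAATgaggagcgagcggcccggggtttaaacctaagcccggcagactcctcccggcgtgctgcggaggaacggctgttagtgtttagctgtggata
Top2a, chr11:99024160-99024309, minus strand: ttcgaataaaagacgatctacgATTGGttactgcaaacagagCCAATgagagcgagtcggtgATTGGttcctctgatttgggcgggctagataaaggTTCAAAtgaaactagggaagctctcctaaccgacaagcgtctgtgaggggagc

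*Cenpf* and *Ube2c* hold 1 TTTGAA each, and *Top2a* holds 1 TTTGAA beside 3 CCAAT elements. *Cdca8* holds 1 TTTGAA and 4 CCAAT elements, of which the last shares a base with the TTTGAA, and its RefSeq start lies inside the longer GENCODE gene model. *Ccnb1* holds 2 CCAAT elements and no TTTGAA in this window. Over the 10799 windows of the 8312 genes of the expression table that had one, 4.99% held TTTGAA on either strand, 26.5% held CCAAT and 1.56% held both. Of the 140 genes that were higher in the arc than in the later arc 116 had a window, and among their 136 windows TTTGAA stood in 36.0%, CCAAT in 61.0% and both in 28.7%. The 7 windows of the genes higher than in the earlier arc held TTTGAA in 3 and CCAAT in 5, and the 21 windows of 16 of the 24 genes lower than in the earlier arc held them in 5 and 13. A match is a description of these letters, and nothing was measured on factors that bind them.

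Total UMIs per cell, the count of RNA molecules captured, are not part of the rule that drew the arc. The median was 17831 UMIs in the arc of culture 1, between 22822 in the earlier arc and 14111 in the later one. In culture 2 the order was the same, with 15422 UMIs in the arc, 18653 before it and 11876 after it. On the log2 scale the mean of the arc lay below the earlier arc by 0.22 in both cultures, a ratio of 0.858 and 0.860, and above the later arc by 0.50 in culture 1 and 0.33 in culture 2, a ratio of 1.42 and 1.26. The SD between the cultures was 0.0034 for the first difference and 0.12 for the second, so both differences were larger than the spread between the cultures. The median number of genes detected followed the same course, at 3726, 3376 and 2892 genes in culture 1 and 3283, 2940 and 2550 genes in culture 2. Less RNA per cell and a lower capture of RNA cannot be told apart in these counts.

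**Figure D1:**
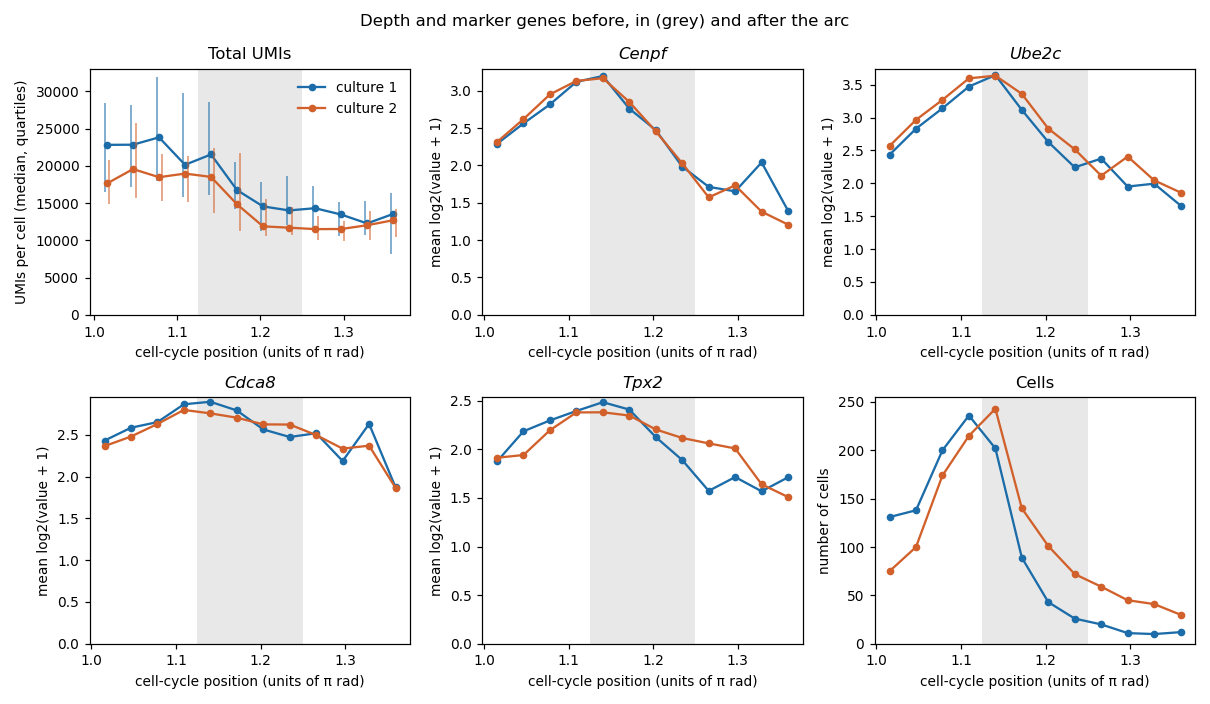
Median total UMIs per cell with their quartiles, mean log2(value + 1) of the 4 marker genes and the number of cells, in bins of 1 slice (the arc was cut into 4 slices of equal width) along the cell-cycle position (x axis, units of π rad), for culture 1 (blue) and culture 2 (orange), with the arc in grey. Across the grey arc UMIs go from 21535 to 14021 in culture 1 and, in culture 2, from 18521 to 11703, and *Cenpf* and *Ube2c* are highest in its first slice.

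UMIs fell across the arc, but the fall was not confined to it. The arc was cut into 4 slices of equal width, and from first to last the median was 21535, 16747, 14556 and 14021 UMIs in culture 1. In culture 2 it was 18521, 14837, 11882 and 11703 UMIs. The largest drop lay between the first 2 slices in culture 1, and in culture 2 the median dropped from each of the first 2 slices to the next, while the last pair of slices lay close to each other in both. Just outside the borders, the last slice-wide bin before the arc had a median of 20143 and 18965 UMIs and the first bin after it 14317 and 11510 UMIs. In culture 1 the bin before that last one had 23830 UMIs. Mean log2 UMIs went from 13.93 in the last slice to 13.77 and 13.63 in the next bins of culture 1. In culture 2 they went from 13.69 to 13.59 and 13.51. Most cells were in the first slice, 202 in culture 1 and 243 in culture 2, and the last slice held 26 and 72 cells, so values for the last slice of culture 1 rest on few cells.

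Within the arc, UMIs per cell were widely spread and in culture 2 had 2 humps. Between log2 values of 13.25 and 13.75 the arc of culture 2 held 91 and 92 cells in adjacent bins of 0.25, the next bin held 47, and the bins from 14 to 14.5 held 79 and 91. In culture 1 the highest bins were those from 13.75 to 14.25, with 65 cells each, and 46 cells lay between 14.75 and 15, above 39 in each of the 2 bins before. The lower hump of each culture overlapped the bins in which its later arc had most cells. The SD between cells was 0.62 log2 units in culture 1 and 0.58 in culture 2, against 0.57 and 0.47 in the earlier arc and 0.48 in the later arc of each culture. The earlier arc of culture 1 was also uneven, with 126, 76 and 120 cells in the bins from 14 to 14.75.

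**Figure D2:**
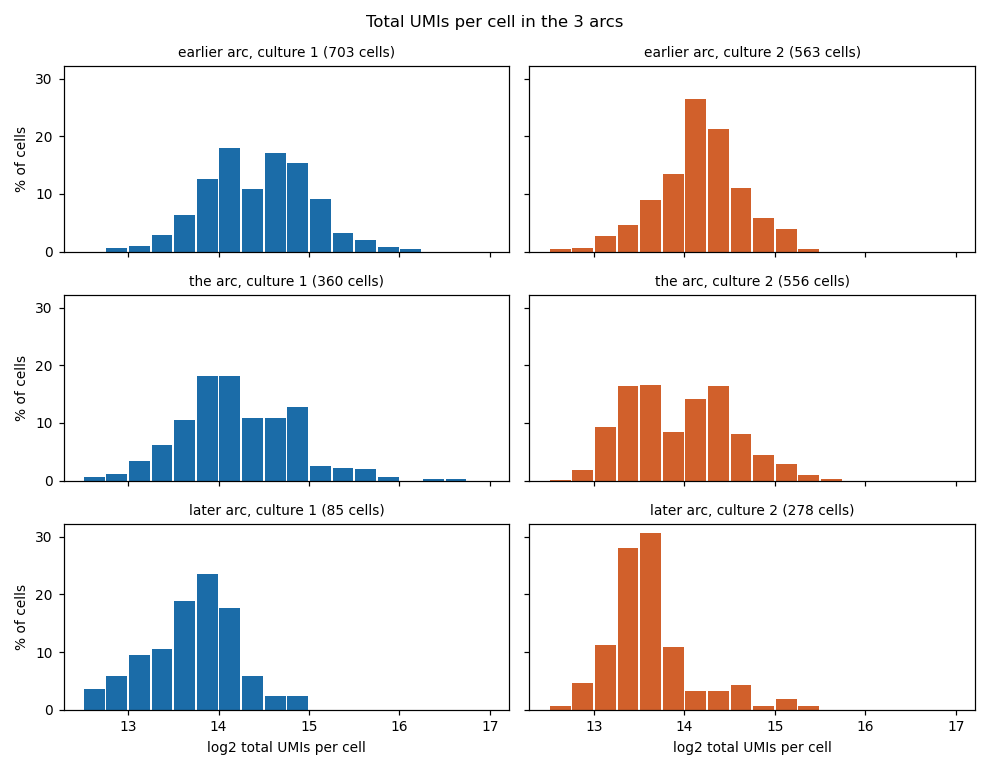
Share of cells (y axis, %) by log2 total UMIs per cell (x axis, bins of 0.25) in the earlier arc, the arc and the later arc, for culture 1 (left) and culture 2 (right). The arc of culture 2 has its 2 humps at 13.25 to 13.75 and 14 to 14.5, and the later arc of culture 2 has most cells at 13.25 to 13.75.

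Cells with very high UMIs were present in the arc. Above the upper quartile of their culture by more than 1.5 times the interquartile range lay 19 arc cells in culture 1 and 67 in culture 2. Of all cell barcodes, 48 occurred in both cultures, and 6 of the arc cells carried one. The authors had removed cells by a doublet score before deposit and no doublet caller was run here. Leaving out either kind of cell changed none of the 4 counts of genes given below by more than 1.5 times.

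The 3 deposited stage methods read the arc differently. Seurat placed 358 of 360 cells in culture 1 (99.4%, interval 98.0 to 99.93%) and 554 of 556 in culture 2 (99.6%, interval 98.7 to 99.96%) in G2M, but it also placed 91.8% and 95.3% of the later arc there. With cyclone 81.4% and 81.7% of the arc cells were in G2M, and 60 and 91 cells were in G1. In the later arc cyclone put 73 of 85 and 193 of 278 cells in G1, so its border fell close to the end of the arc. SchwabeCC gave no stage to 171 and 268 arc cells, and placed 109 and 186 in G2.M, 58 and 51 in M.G1 and 22 and 50 in G2. The cells had markers of mitotic entry, but cells called M.G1 by SchwabeCC or G1 by cyclone were among them. Seurat also placed 97.9% and 98.6% of the earlier arc in G2M, and the markers were nearly level with that arc, as given below. Neither separates these cells from those before them. No value here separates mitotic entry from later mitosis, so the cells are called arc cells.

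The 4 marker genes are *Cenpf* (ENSMUSG00000026605, chromosome 1, 189640606 to 189688086, minus strand), a kinetochore and nuclear matrix protein, *Ube2c* (ENSMUSG00000001403, chromosome 2, 164769898 to 164778822, plus strand), the ubiquitin-conjugating enzyme of the APC/C, *Cdca8* (ENSMUSG00000028873, chromosome 4, 124918465 to 124939311, minus strand), the borealin subunit of the chromosomal passenger complex, and *Tpx2* (ENSMUSG00000027469, chromosome 2, 152847964 to 152895321, plus strand), a spindle assembly factor that activates Aurora A. Gene positions are from the GENCODE vM21 annotation of GRCm38. Levels are given as the mean over cells of log2(value + 1), where value is the expression that the authors had normalized for the depth of each cell. A difference is called here when it is at least 0.25 on this scale in the same direction in both cultures.

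*Cenpf* had a mean level of 2.92 in the arc of culture 1 and 2.81 in culture 2. In the earlier arc it was 2.77 and 2.88 and in the later arc 1.44 and 1.29. *Ube2c* stood at 3.29 and 3.28 in the arc, at 3.06 and 3.25 before it and at 1.87 and 1.96 after it. Both markers were thus nearly level with the earlier arc and far above the later one. *Cdca8* was at 2.80 and 2.70 in the arc, 2.67 and 2.63 before and 2.05 and 2.28 after, and *Tpx2* at 2.38 and 2.31 in the arc, 2.23 and 2.18 before and 1.45 and 1.66 after. The 4 differences from the later arc were 1.47 and 1.52 for *Cenpf*, 1.42 and 1.32 for *Ube2c*, 0.76 and 0.43 for *Cdca8* and 0.93 and 0.64 for *Tpx2*. Against the earlier arc none of the 4 reached 0.25 in both cultures. Their mean differences from it, from 0.038 for *Cenpf* to 0.13 for *Tpx2* and *Ube2c*, changed sign when the cells' depth was put back into the values, to between -0.13 and -0.021, and also when the borders were moved by 1/32 of π to later positions.

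Most arc cells expressed all of the markers at once. No marker was listed at 0 in 332 of 360 cells of culture 1 and 503 of 556 of culture 2, and no arc cell had 3 or 4 of them at 0. This was not particular to the arc. In the earlier arc 663 of 703 and 516 of 563 cells had none at 0. These are 94.3% and 91.7%, against 92.2% and 90.5% in the arc. In the later arc 41 of 85 and 137 of 278 cells had none at 0. For comparison, in the arc from 1/8 to 1/4 of π, on the opposite side of the cycle, 2 of 190 and 3 of 245 cells had none at 0, and 95 and 109 cells had all 4 at 0. Median depth there was 18039 and 14994 UMIs, close to the depth of the arc. *Ube2c* was detected in 30.5% and 35.5% of those opposite cells, *Cdca8* in 24.7% and 17.6%, *Cenpf* in 11.6% and 11.8% and *Tpx2* in 11.1% and 9.0%, against at least 94.2% of arc cells for each of them.

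Among themselves the markers did not run in parallel through the arc. From its first to its last slice *Cenpf* fell by 1.21 in culture 1 and by 1.14 in culture 2, and *Ube2c* fell by 1.40 and 1.12. *Tpx2* fell by 0.60 and 0.26, and *Cdca8* differed by -0.42 and -0.13, which in culture 2 is under the threshold. All 4 had their mean maximum over 16 equal arcs of the circle in the arc itself or, for *Cenpf* in culture 2, in the arc before it.

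Only 7 of 10666 genes (0.0656%) were higher in the arc than in the earlier arc in both cultures, and all of them belong to the cell-cycle lists used here, which hold 2.35% of all genes measured and were chosen with results of these data known. *Cdc20*, the activator of the APC/C, had the largest difference. Its mean level was 3.19 in the arc and 2.52 before it in culture 1, and 2.71 and 2.0 in culture 2, so it was higher by 0.68 and 0.71. After the arc it was 1.96 and 2.20. *Arl6ip1*, which encodes a membrane-shaping protein of the endoplasmic reticulum, was higher by 0.59 and 0.58. It was at 4.18 and 4.02 in the arc and at 4.14 and 3.76 in the later arc. That difference was 0.04 and 0.26, and 0.51 and 0.56 with depth put back.

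*Cenpa*, the histone H3 variant that marks the centromere, was higher by 0.49 and 0.43, at 3.48 and 3.10 in the arc. Its level before the arc was 2.99 and 2.66, and after the arc it was nearly the same, at 2.95 and 2.79. *Ccnb1*, which encodes cyclin B1, was higher by 0.30 and 0.36 in the arc and then lower again, from 2.90 and 2.38 in the arc to 1.57 and 1.5 after it. *Tacc3* and *Knstrn*, both spindle proteins, were higher by 0.38 and 0.33 and by 0.36 and 0.33, and the CDK-associated phosphatase gene *Cdkn3* by 0.46 and 0.31. *Tacc3* stood at 1.66 and 1.27 in the arc and at 1.53 and 1.25 in the later arc, a difference of 0.13 and 0.02.

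The genes next in order show how sharp the threshold is. *Ccnb2*, which encodes cyclin B2, differed by 0.40 in culture 1 and by just under 0.25 in culture 2. *Msmo1*, an enzyme of sterol synthesis, differed by 0.24 and 0.26 and *Cby1*, which encodes a basal body protein, by 0.25 and 0.22. These sit just outside the 7. With all borders moved by 1/32 of π to later positions, *Arl6ip1* was the only 1 of the 7 still called, and with borders moved to earlier positions all 7 were.

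In the other direction 24 genes (0.225%) were lower in the arc than in the earlier arc in both cultures. Of them 20 are in the cell-cycle lists, which hold 2.35% of all genes. The replication clamp *Pcna* had the largest difference by the smaller of the 2 cultures, at 1.63 and 1.62 in the arc against 2.31 and 2.29 before it, a difference of -0.67 in both cultures. *Pclaf*, a PCNA-binding protein, differed by -0.55 and -0.66, the dUTPase gene *Dut* by -0.52 and -0.53, the DNA ligase gene *Lig1* by -0.51 and -0.54 and the thymidine kinase gene *Tk1* by -0.46 and -0.53. *Fbxo5*, which encodes the APC/C inhibitor EMI1, went from 0.84 and 0.88 to 0.34 and 0.37. It was detected in 65.6% and 58.4% of the earlier cells, in 32.8% and 25.5% of arc cells and in 4.7% and 2.5% of the later cells, below the 11.6% and 12.7% of the opposite arc. These shares were not corrected for depth.

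*Top2a*, the topoisomerase that resolves chromosomes, was lower than before the arc by 0.65 in culture 1 and by 1.03 in culture 2, at 2.07 and 2.12 against 2.72 and 3.15. *Aurkb*, the kinase of the chromosomal passenger complex, was lower by 0.43 and 0.53 and its partner *Incenp* by 0.28 and 0.41. The condensin genes *Smc2* and *Smc4* were lower by 0.32 in both cultures and by 0.28 in both. Genes of mitosis therefore stood on both sides of this comparison, with *Cdc20*, *Ccnb1* and *Cenpa* higher and *Top2a*, *Aurkb* and *Incenp* lower. With 1 culture alone the counts were 13 higher and 41 lower in culture 1 and 11 and 52 in culture 2. With depth put back, 2 genes were higher, *Cdc20* and *Arl6ip1*, and 127 were lower, a set that holds all of the 24. The median of all genes was -0.0044 and -0.0048, and -0.027 and -0.024 with depth put back.

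**Figure D3:**
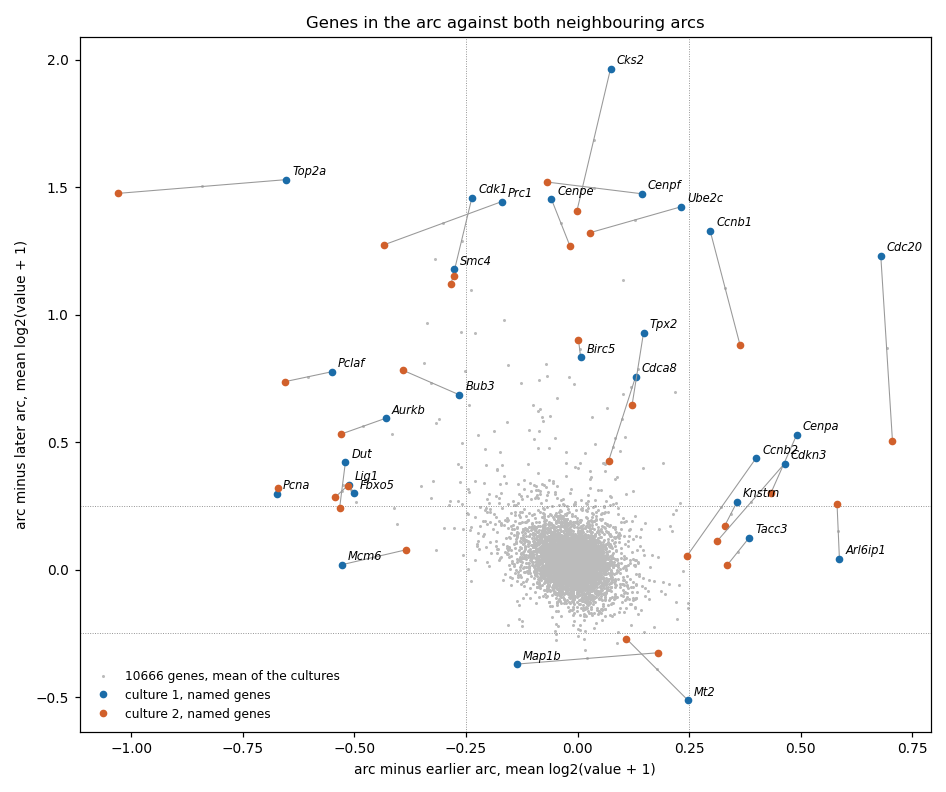
Difference of mean log2(value + 1) between the arc and the earlier arc (x axis) and between the arc and the later arc (y axis) for 10666 genes (grey, mean of the cultures), with named genes in blue for culture 1 and in orange for culture 2, joined by a line, and dotted lines at 0.25 and -0.25. Both axes share the values of the arc cells. *Cdc20* lies furthest to the right, at 0.68 and 0.71, and *Top2a* furthest to the left, at -0.65 and -1.03.

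Against the later arc the picture was one-sided. Of 10666 genes, 140 (1.31%) were higher in the arc in both cultures and 3 (0.0281%) were lower. Of the 140, 88 (62.9%) are in the cell-cycle lists and 52 are not, against 2.35% of all genes in these lists. By the smaller of the 2 cultures *Top2a* had the largest difference, at 2.07 and 2.12 in the arc against 0.54 and 0.65 after it, so that it was already lower than in the earlier arc and higher than in the later one. Next to it came *Cenpf* and the CDK-binding subunit *Cks2*, whose differences of 1.96 and 1.41 had the larger mean. *Prc1*, the microtubule bundler of the central spindle, differed by 1.44 and 1.27, the kinetochore motor *Cenpe* by 1.45 and 1.27, *Cdk1* by 1.46 and 1.12 and the microtubule-binding *Nusap1* by 1.08 and 1.12. *Smc2* and *Smc4* were higher than after the arc by 1.22 in both cultures and by 1.18 and 1.15.

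The 3 genes lower than in the later arc were *Map1b*, a microtubule-associated protein of neurons and progenitors, by 0.37 and 0.33, the metallothionein *Mt2* by 0.51 and 0.27, and the proteasome subunit *Psmc6* by 0.26 and 0.37. With depth put back no gene was lower, and *Psmc6* differed by 0.13 and -0.12. *Cyp51*, an enzyme of sterol synthesis, was the nearest outside them at -0.35 and -0.22. None of these 3 was called against a later arc of the same width as the arc, or with a position recomputed without the markers. Among cells of matched depth 42 genes were lower, with *Map1b* and *Mt2* among them. Culture 1 alone, with its 85 later cells, gave 290 higher and 51 lower genes, and culture 2 alone gave 174 and 12. With depth put back the count of genes higher than in the later arc was 724, of which 140 were those counted above.

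Over all genes, 0.0656% were higher and 0.225% lower than before the arc, and 1.31% were higher and 0.0281% lower than after it. The counts by list are to be read beside these shares. By function, the list of the mitotic CDK switch had 14 genes measured. Of its genes, 1 was higher and none lower than before the arc, and 5 were higher than after it. Its median differences were -0.06 and -0.07 from the earlier arc and 0.26 and 0.18 from the later one, against medians of all genes of 0.014 and 0.0089 for the later arc. *Ccnb1* was the one that was higher, while *Cdk1* and *Aurka* stood at -0.24 and -0.28 and at -0.14 and -0.19 from the earlier arc. *Ccna2* and *Plk1* were not analysed here.

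For the APC/C with its activators and inhibitors, 1 of 21 genes was higher than before (*Cdc20*), 2 were lower and 5 were higher than after the arc. *Fzr1*, the APC/C activator of late mitosis and G1, was at 1.06 and 1.04 in the arc, close to 1.10 and 1.18 before it, and higher than after it by 0.47 and 0.48. Of 11 genes of the spindle checkpoint, *Bub3* was lower than before, by 0.27 and 0.39, and 5 were higher than after. *Bub1b* and *Mad2l1* were among these 5, by 0.53 and 0.39 and by 0.44 and 0.28.

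All 6 measured genes of the chromosomal passenger complex and shugoshins were higher than in the later arc, and 2 of them were lower than in the earlier arc. *Birc5*, which encodes survivin, was at 2.71 and 2.62 in the arc and 2.70 and 2.62 before it, while *Aurkb* was lower than before. The subunits of this complex thus had unequal courses.

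Of 30 centromere and kinetochore genes, 1 was higher than before (*Cenpa*), none was lower and 14 were higher than after. *Spc25*, a subunit of the NDC80 complex, differed by -0.23 and -0.23 from the earlier arc and by 1.0 and 0.86 from the later one. The 27 measured genes of spindle assembly and microtubule binding had 3 genes higher than before (*Arl6ip1*, *Tacc3* and *Knstrn*), none lower and 17 higher than after. Here the median difference from the earlier arc was 0.01 in both cultures and -0.05 and -0.06 with depth put back, and 11 of the 27 had their maximum of 16 arcs in the arc in both cultures. *Hmmr*, a spindle and centrosome protein, was at 2.03 and 1.78 in the arc and at 0.55 and 0.99 after it, and *Aspm*, a spindle pole protein, at 1.15 and 1.07 and at 0.46 and 0.32.

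For the central spindle and cytokinesis 8 of 12 genes were higher than after the arc and none differed from the earlier arc by the threshold. The kinesin *Kif20a* stood at 0.86 and 0.66 in the arc, 0.77 and 0.54 before and 0.25 and 0.23 after, and *Kif23* at 0.77 and 0.59, 0.79 and 0.74, and 0.05 and 0.12. In the list of condensins, *Top2a*, *Mki67* and chromatin proteins, 3 of 14 were lower than before and 7 higher than after. Among 12 genes of the nuclear envelope none differed from the earlier arc by the threshold, and 2 were higher than after, *Tmpo*, a lamina-associated protein, by 0.53 and 0.76 and the nucleoporin *Nup37* by 0.38 and 0.26.

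In the S phase lists a minority of genes was lower than before the arc, but far more than the 0.225% of all genes. The median of all genes was -0.0044 and -0.0048. Of 36 genes of the replication fork and nucleotide synthesis none was higher and 9 were lower than before the arc, with median differences of -0.22 and -0.21, and 9 were higher than after it. In the list of the MCM helicase and origins 2 of 16 were lower than before, *Mcm6* by 0.53 and 0.39 and *Gins2* by 0.32 and 0.49, and 2 were higher than after. *Dbf4*, which activates the origin kinase CDC7, went another way, with 0.99 and 1.22 in the arc, 1.07 and 1.18 before and 0.25 and 0.45 after. The 42 S genes of Seurat had 7 lower than before and 9 higher than after, and its 48 G2M genes had 3 higher and 3 lower than before and 40 higher than after. Both Seurat lists are read by the stage method named above.

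Among 14 genes of cyclins D and E and CDK inhibitors, *Cdkn3* was the 1 higher than before and *Cdkn2c*, the CDK4 and CDK6 inhibitor p18, was the 1 higher than after, by 0.63 and 0.61. None of the 14 regulators of G2/M transcription passed in either comparison. *Foxm1*, a transcription factor of G2 and M genes, was at 0.22 and 0.30 in the arc, 0.31 and 0.35 before and 0.06 and 0.11 after. None of the 58 cytosolic ribosomal protein genes or the 67 nuclear genes of oxidative phosphorylation passed. For these lists and the 14 regulators, none passing is near the shares over all genes, which were at most 1.31%. With depth put back, 5 ribosomal genes were lower than before, and 55 ribosomal and 25 oxidative phosphorylation genes were higher than after, since these values then carry the depth of the cells. Of the immediate early list 5 of 21 genes were measured and none passed.

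**Figure D4:**
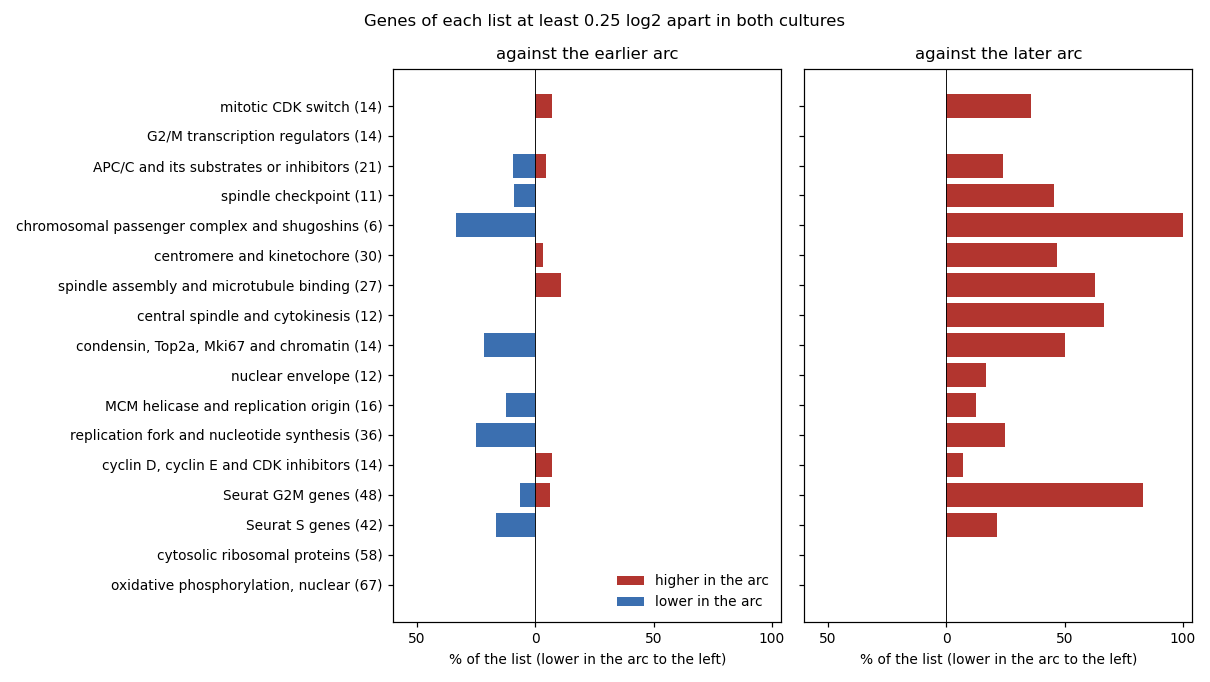
Share of the measured genes of each list (number in brackets) that differed by at least 0.25 log2 in both cultures from the earlier arc (left panel) and from the later arc (right panel), with higher in red to the right and lower in blue to the left (x axis, % of the list). Against the later arc all 6 passenger complex genes and 40 of 48 Seurat G2M genes are higher and no list has a lower gene.

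Of the 10666 genes, 126 (1.18%) had their highest mean of 16 equal arcs in the arc in both cultures, and 58 of them exceeded the opposite arc by at least 0.25 in both. The others did not exceed it by that much in both. With 1 culture alone the count was 397 in culture 1 and 410 in culture 2. *Cdc20*, *Cenpa*, *Ccnb1*, *Ube2c*, *Cdca8*, *Tpx2*, *Birc5*, *Hmmr*, *Tacc3*, *Knstrn*, *Ccnb2* and *Cdkn3* were in this set, while *Top2a*, *Prc1*, *Cdk1*, *Aurka*, *Aurkb*, *Nusap1* and *Spc25* were highest in an arc before it in both cultures.

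Inside the arc, 105 genes (0.984%) were lower in its last slice than in its first by at least 0.25 in both cultures and 9 (0.0844%) were higher. *Top2a* had the largest fall, from 2.67 through 1.56 and 1.12 to 0.71 over the slices of culture 1 and from 2.78 through 2.14 and 1.36 to 0.95 in culture 2. *Prc1* fell by 1.83 and 1.38, the nuclear import receptor *Kpna2* by 1.51 and 1.10, *Nusap1* by 1.43 and 1.03, *Cdk1* by 1.32 and 0.95 and *Bub3* by 1.15 and 1.02. *Cenpe* fell by 1.44 and 0.91. For *Top2a* the largest step in culture 1 lay between the first 2 slices, the same step in which the median of UMIs dropped most. Culture 2 did not repeat this, as the largest step of *Top2a* lay between slices 2 and 3, from 2.14 to 1.36. There the median of UMIs went from 18521 to 14837 and then to 11882.

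Other genes did not pass the threshold in both cultures across the same slices. These levels are depth-normalized while UMIs per cell fell, and they were not recomputed by slice with depth put back. *Arl6ip1* was at 4.14, 4.27, 4.28 and 3.98 in culture 1 and at 3.99, 4.08, 4.09 and 3.93 in culture 2. *Ccnb2* was at 1.40, 1.46, 1.67 and 1.53 and at 1.11, 1.23, 1.09 and 1.11. *Tacc3* differed by -0.14 and -0.08 from first to last slice, and *Cenpa* by -0.48 and -0.20. The cultures disagreed on *Cdc20*, which was 0.61 lower in the last slice of culture 1, with its 26 cells, and 0.23 higher in that of culture 2. *Ccnb1* and *Ccnb2* thus parted inside the arc, as *Ccnb1* fell by 1.10 and 0.51.

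**Figure D5:**
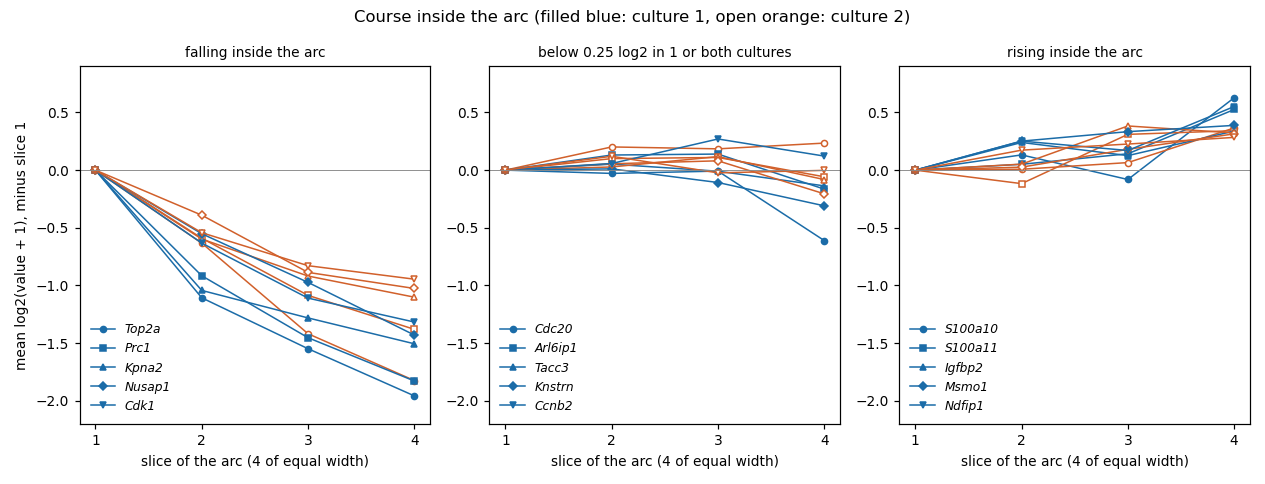
Mean log2(value + 1) in each slice of the arc (x axis) minus that of the first slice (y axis) for 5 genes that fell, 5 that did not pass the threshold in both cultures and 5 that rose, with culture 1 in filled blue and culture 2 in open orange. *Top2a* ends at -1.96 and -1.83, and *S100a10* at 0.63 and 0.37.

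The 9 genes that rose inside the arc are not in the cell-cycle lists, which hold only 2.35% of all genes. Their levels too are depth-normalized and were not recomputed by slice with depth put back. Mean log2 UMIs of the first slice were 14.38 and 14.12, against 13.93 and 13.69 for the last slice. The last slice of culture 1 held 26 cells. The part of depth in these rises was not tested. The calcium-binding S100 family members *S100a10* and *S100a11* rose by 0.63 and 0.37 and by 0.53 and 0.34. *Igfbp2*, a binding protein of insulin-like growth factors, rose by 0.34 and 0.32, *Msmo1* by 0.39 and 0.31, *Ndfip1*, an adaptor of NEDD4 ubiquitin ligases, by 0.55 and 0.28 and the mitochondrial ribosomal gene *Mrps6* by 0.45 and 0.28. *Got1*, *Gnl3* and *Kdelr1* rose by 0.27 and 0.40, 0.27 and 0.27, and 0.31 and 0.26. *Rab5if* differed by 0.47 in culture 1 and by just under 0.25 in culture 2. The largest falls were larger than any of these rises, but several of the 105 falls, such as those of *Birc5* (0.79 and 0.30) and *Bub1b* (0.38 and 0.31), also lay close to the threshold in culture 2.

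Across single cells of the arc, as a description over 360 and 556 cells that share a library, *Top2a* had a Pearson correlation of 0.47 and 0.44 with log2 total UMIs and of -0.51 and -0.47 with position. For *Prc1* these were 0.47 and 0.37 with UMIs and -0.49 and -0.41 with position. *Arl6ip1* had -0.30 and -0.23 with UMIs and 0.0062 and -0.00096 with position, and *Cdc20* had -0.12 and -0.30 with UMIs and -0.16 and 0.098 with position. Log2 UMIs and position correlated at -0.30 and -0.29. The part of depth in the course of these genes was not tested across cells. With cells between the quartiles of UMIs of their culture only, 10 genes were higher and 25 lower than in the earlier arc, and 6 of the 7 and 18 of the 24 were among them.

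The markers of neural progenitors differed in how many arc cells they were detected in. *Fabp7*, a fatty acid binding protein of radial glia, was detected in all arc cells of both cultures at 6.39 and 6.18, and the intermediate filament gene *Vim* in 99.7% and 99.8%. *Nes*, which encodes nestin, was detected in 95% and 86.7% of arc cells and the glutamate transporter gene *Slc1a3* in 94.4% and 96.9%. The transcription factor genes *Hes1* and *Pax6* of the same list were detected in fewer, 40.6% and 54.1% and 29.2% and 35.4%. None of the 6 measured genes of the progenitor list passed in either comparison, which is near the shares over all genes. The summed level of this list was 17.2 and 16.5 in the arc, 17.3 and 16.6 before it and 17.3 and 17.1 after it. *Olig2*, a transcription factor of the oligodendrocyte lineage, was detected in 98.1% and 96.0% of arc cells, while *Sox10* was detected in 4.7% and 0.9% and *Pdgfra* in 13.3% and 2.2%.

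The neuroblast gene *Dcx* was detected in 7.8% and 1.4% of arc cells. Of the astroglial genes, *S100b* was detected in 12.5% and 4.0% and *Sparcl1* in more, 30% and 23.4%. None of the 4 measured oligodendrocyte progenitor genes, the 1 neuroblast gene or the 2 astroglial genes passed in either comparison, again near the shares over all genes. Their summed levels lay between 2.65 and 3.02, 0.01 and 0.09, and 0.40 and 0.73 over the 3 arcs and cultures. Markers of microglia, endothelium and red cells were not analysed here.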

How the data were processed

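The series has 3′ single-cell RNA libraries of 2 replicate cultures. By their methods and notes, the authors quantified reads with alevin (Salmon 1.3.0) against GRCm38, kept spliced counts, dropped outlying cells (genes, UMIs, mitochondrial share, doublet score) and left out mitochondrial and rarely expressed genes. The deposited expression values are a signal on a linear scale that the authors had normalized for the depth of each cell. Whole reads were not recoverable (8.90% and 9.29% of the nonzero values of arc cells lie within 0.02 of a whole number), so no count model and no thinning was used, although the plan had assumed a unit closer to counts. The authors' total UMIs add up estimated counts in each cell, and position and stages are other values of theirs. Which matrix gave the position is not given in the sources used here. Each column belongs to 1 of the cultures.

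The scale used is log2(value + 1), a scale that understates changes of low genes, with means taken over the cells of each arc within each culture (Python 3.11.15, numpy 2.4.6, pandas 2.3.3). A gene was called at a difference of 0.25 in the same direction in both cultures, over all 10666 genes. On simulated data, in which 200 of 2000 genes had a known difference of 0.5, all 200 and 0 of the others were called against the earlier arc and likewise against the later arc. As 0.5 is well above the threshold of 0.25, this outcome cannot tell how reliably genes near the threshold are called. Intervals for shares are exact binomial ones (scipy 1.17.1). Depth was put back by multiplying each value by the UMIs of its cell over the mean UMIs of its culture. Symbols were found for 10662 genes. Promoter sequences are from RefSeq, and genes on some chromosomes are not shown.

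The members, the gene lists and the alternatives were chosen with earlier results of these data known, and nothing here supports them independently. Named were the 4 markers, for each direction and comparison the 10 genes with the largest smaller-of-2-cultures difference among genes detected in at least 10% of cells, up to 4 genes of each list with the largest such difference, cell type markers, and the 10 largest falls and rises inside the arc. Of the genes this rule picks, 1 is not reported here. Alternatives were each culture alone, other borders and widths, another pseudocount, the log of the mean, depth put back, cells of matched depth, Seurat G2M cells only, other thresholds, a filter on low genes, a recomputed position and 8 arcs. Leaving out shared barcodes and cells of very high UMIs was added after seeing the data.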

Additional observations from a re-analysis of the deposited data

How the results depend on the processing

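No test was run, paired or unpaired, and arcs were compared within each culture throughout. With 1 culture alone the counts ranged from 11 to 13 genes higher and 41 to 52 lower than in the earlier arc, 174 to 290 higher and 12 to 51 lower than in the later arc, and 397 to 410 highest in the arc, since the other culture no longer had to pass. Moving all borders by 1/32 of π to later positions gave 3 and 73 genes higher and lower than the earlier arc, with 1 of the 7 and 21 of the 24 among them, 1 lower than the later arc, log2 UMI differences of -0.41 and 0.22 and a share of 4.30% of cells. Moving them to earlier positions gave 25 genes higher than the earlier arc, a UMI difference of -0.17 and 9.91% of cells. A pseudocount of 0.1 gave 38 and 318 genes against the earlier and 1154 and 21 against the later arc. A later arc of the same width gave 3 genes lower than it, none of them those of the report. The log of the mean gave 7 genes lower than the later arc. With depth put back the counts were 2 and 127 against the earlier and 724 and 0 against the later arc, and with cells of matched depth 42 genes were lower than the later arc. The cause of these shifts was not tested.

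Thresholds of 0.1, 0.5 and 1 gave 66, 2 and 0 genes higher and 233, 6 and 0 lower than the earlier arc, and 657, 47 and 10 higher and 85, 0 and 0 lower than the later arc. With medians in place of means the UMI difference from the earlier arc was -0.32. A position recomputed without the 4 markers from 247 genes put 8.52% of cells in the arc, 75.4% of the arc cells among them, with 1 gene lower than the later arc, and 5 higher and 21 lower than the earlier arc, of which 5 and 17 were those of the report. In 8 wider arcs 515 genes were highest in the arc. No UMI difference changed sign. Over 52 marker values against the later arc, all 52 were above 0, from 0.43 to 2.44, and over 52 against the earlier arc 42 were. The 26 cells of the last slice of culture 1 and its 85 later cells limit the precision of values that rest on them.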
